A study of Mus musculus with 6 samples.

Results

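The genes described here build, read, remove or reposition the marks and nucleosomes of chromatin. They were taken by symbol: probe sets annotated to exactly 1 gene whose symbol begins with Smarc, Chd followed by a digit, Hdac, Kdm (Kdm5c, Kdm5d and Kdm6a left out), Kmt, Setd, Dnmt, Ezh, Cbx, Brd or Arid, together with Suz12, Eed, Tet1, Tet2, Tet3, Ep300 and Crebbp. The rule reads gene symbols only. It took in 263 of the 45037 probe sets that were not array controls, and these belong to 104 of the 18193 genes named by such probe sets. A further 8 probe sets that list several genes met the symbol rule and were left out.

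Total RNA came from whole lungs of mouse fetuses at stage E18.5, shortly before birth, each hybridised to an Affymetrix array. All 6 animals had the genotype Nfib f/f, with floxed alleles of the gene for the transcription factor nuclear factor I B. By the labels, 3 of these were Nfib f/f alone and 3 also carried Dermo1-Cre. This is a Cre recombinase driven by the Dermo1 (Twist2) gene and active mainly in mesenchyme. The RNA was not restricted to mesenchyme, so epithelial, endothelial and blood cell RNA is part of every value. The labels call the arrays biological replicates.

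Nfib signal itself was higher in the lungs labelled with Dermo1-Cre. Its brightest probe set measured 10.24 ± 0.07 (SD, n = 3) on the log2 scale in lungs labelled Nfib f/f and 11.30 ± 0.17 (SD, n = 3) in lungs labelled with Cre, and 5 of its 6 tested probe sets rose. The position of the probes relative to the floxed exon is unknown here, so the signal is no check of the deletion. The groups are therefore called control-labelled and Cre-labelled, and every direction below is Cre-labelled minus control-labelled as the labels stand. Each array had a trimmed mean signal of 150.04 to 150.05, and the lung marker lists were bright on all arrays, with surfactant and other alveolar type II genes at mean log2 signals of 10.89 to 11.98.

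Chromatin enzymes act in a few well-known ways. DNA methyltransferases place methyl groups on cytosine and TET dioxygenases oxidise them. Polycomb repressive complex 2 methylates lysine 27 of histone H3 through its catalytic subunits Ezh2 or Ezh1, which need Suz12 and Eed. Heterochromatin protein 1, made as the Cbx1, Cbx3 and Cbx5 proteins, binds histone H3 methylated on lysine 9. Remodelling complexes of the SWI/SNF, ISWI and CHD families use ATP to slide or evict nucleosomes, while acetyltransferases and histone deacetylases add and remove acetyl groups. In the developing lung, Ezh2 and the deacetylases Hdac1 and Hdac2 are known as regulators of epithelial progenitor growth and identity. Many of these genes, Ezh2, Dnmt1 and Suz12 among them, are also more active in dividing cells.

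Of the 263 probe sets, 210 from 99 genes were bright enough to test: their mean over the 6 arrays reached the 40th percentile of all probe sets, a log2 signal of 4.003. The other 53 lay below it, and Chd5, Dnmt3l, Ezhip, Kdm4d and Tet3 had no tested probe set. Of the 210, 4 passed the test, and all 4 rose in Cre-labelled lungs: 1 probe set each of Ezh2, Cbx1, Smarca5 and Smarcc1. No member fell. That is 1.90% of the tested members, while 3.56% of all 27022 tested probe sets passed (963, of which 380 or 1.41% rose and 583 or 2.16% fell), so the share of members that passed lay below that of the array as a whole. For rises alone it was 1.90% against 1.41%. The test was limma's moderated test. Its p-values were adjusted by the method of Benjamini and Hochberg across the 27022 probe sets, and 0.05 was the threshold. With each gene taken by its brightest probe set, 3 of 99 member genes passed (3.03%), against 4.96% of all 12826 genes (1.92% up and 3.04% down).

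The size of the differences was ordinary, and their direction leaned upward. The median difference of the members was 0.06 (log2), against 0.00 over all tested probe sets, and the median absolute difference was 0.18 against 0.20. The quartiles of the members lay at -0.10 and 0.28, and the whole set ranged between -0.82 and 1.12. Of the 210, 122 were higher (58.1%, against 50.1% of all), and the 3 Cre-labelled arrays all lay above the 3 control-labelled arrays for 43 members (20.5%, against 13.3%) and below them for 11 (5.24%, against 12.8%). At an unadjusted limma p under 0.05, 33 members were higher (15.7%, against 9.50%) and 5 lower (2.38%, against 9.97%). Probe sets of the same gene share their RNA and often their transcript, so these counts are not counts of independent genes. Because the tissue is bulk, fewer cells of a type and less RNA per cell cannot be told apart for any of these values.

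The promoters of the 4 genes that passed are shown because these genes rose together and nuclear factor I binds DNA. Each line gives the 250 bases before the RefSeq start site in the GRCm38.p6 build, 5′ to 3′ on the gene's strand. Capitals mark the CCAAT box (CCAAT, or ATTGG on the opposite strand) and the single site of nuclear factor I (TTGGC, or GCCAA on the opposite strand).
Ezh2: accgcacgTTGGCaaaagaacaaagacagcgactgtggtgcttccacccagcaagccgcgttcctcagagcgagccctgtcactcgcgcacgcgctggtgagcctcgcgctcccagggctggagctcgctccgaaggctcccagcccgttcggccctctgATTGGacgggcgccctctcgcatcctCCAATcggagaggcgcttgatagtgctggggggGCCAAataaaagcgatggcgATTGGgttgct
Cbx1: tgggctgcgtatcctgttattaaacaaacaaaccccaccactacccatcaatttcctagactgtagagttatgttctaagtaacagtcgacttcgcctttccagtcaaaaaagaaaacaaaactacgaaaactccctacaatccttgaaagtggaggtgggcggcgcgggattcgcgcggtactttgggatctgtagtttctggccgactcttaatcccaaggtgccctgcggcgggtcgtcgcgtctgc
Smarca5: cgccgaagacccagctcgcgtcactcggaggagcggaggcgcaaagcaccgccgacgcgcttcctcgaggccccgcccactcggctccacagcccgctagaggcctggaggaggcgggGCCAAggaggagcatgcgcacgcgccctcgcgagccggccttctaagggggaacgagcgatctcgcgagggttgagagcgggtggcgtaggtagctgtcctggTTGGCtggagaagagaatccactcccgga
Smarcc1: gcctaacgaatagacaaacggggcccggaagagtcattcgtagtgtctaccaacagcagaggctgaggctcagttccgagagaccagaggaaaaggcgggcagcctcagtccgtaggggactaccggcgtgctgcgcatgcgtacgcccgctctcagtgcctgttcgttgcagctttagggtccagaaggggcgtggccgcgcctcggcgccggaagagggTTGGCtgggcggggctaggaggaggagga
The Ezh2 window lies at chr6:47595031-47595280 (minus strand), the Cbx1 window at chr11:96788885-96789134 (plus strand), the Smarca5 window at chr8:80739460-80739709 (minus strand) and the Smarcc1 window at chr9:110131774-110132023 (plus strand). Counting the base next to the start site as -1 and giving the first base of each word, the Ezh2 promoter holds CCAAT boxes at -90, -64 and -11 and single sites at -242 and -31. Smarca5 holds single sites at -132 and -29, Smarcc1 has 1 at -29, and the Cbx1 window has neither word. The words GCCAAT and ATTGGC would count for both motifs, since the 2 overlap by letters.

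Such words are common. RefSeq promoters were matched for 83 of the 104 member genes, with 114 start sites. A single site stood in 52.6% of the member windows and in 41.5% of all 32851 windows, and a CCAAT box in 34.2% and 33.8%. The full palindrome of nuclear factor I, which is TTGGC and GCCAA with 5 bases between them, was in none of the member windows and in 0.0365% of all. An E2F word (TTTCCCGC, TTTGGCGC, TTTCGCGC or TTTGCCGC, on either strand), a motif known from cell cycle genes, was in 7 member windows (6.14%, against 1.86% of all), those of Arid1a, Brd7, Cbx3, Dnmt1, Kmt5c, Smarcd1 and Suz12. The windows of Ezh2, Cbx1, Smarca5 and Smarcc1 held no E2F word. The 7 genes with the word did not share a direction, with Kmt5c at -0.42 and the brightest Dnmt1 probe set at 0.47. Member windows also held more CpG pairs, with a median of 21 against 6 over all windows, and each E2F word holds at least 1 such pair. A match describes letters in the window and no binding.

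Within Polycomb repressive complex 2, the catalytic subunit Ezh2 rose. Its only probe set (1416544_at) read 9.338, 9.242 and 8.998 in control-labelled lungs and 9.936, 9.798 and 9.941 in Cre-labelled lungs. Every Cre-labelled array lay above every control-labelled array. The means were 9.19 ± 0.18 and 9.89 ± 0.08 (SD, n = 3 each), a difference of 0.70 ± 0.11 (SE, log2) or 1.62-fold, with a limma adjusted p of 0.0148. Leaving out 1 array at a time gave adjusted p-values of 0.0301 to 0.0526, and the call was lost without control-labelled array 2 or Cre-labelled array 1. The difference itself ran from 0.60 to 0.84 over all alternative settings.

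The partners of Ezh2 did not pass. Suz12, which stabilises the complex, had 6 tested probe sets, all higher by 0.22 to 0.64, with adjusted p-values of 0.267 to 0.70. Its brightest read 9.30, 9.21 and 9.62 against 9.70, 9.41 and 9.87, and these ranges overlap. Eed, which binds the methylated histone tail, differed by 0.07 and 0.12. The brightest probe set of Ezh1, the alternative catalytic subunit, lay lower on every Cre-labelled array (8.08, 8.10 and 8.06 against 7.80, 7.98 and 7.92), a difference of -0.18 with an adjusted p of 0.362, while its second tested probe set differed by 0.30. Over the 11 tested probe sets of the complex the median difference was 0.29 (0.19 without control-labelled array 2 or Cre-labelled array 1), and 10 were higher.

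Of the Polycomb chromobox proteins, which read the Ezh2 mark in the other Polycomb complex, none of 5 tested probe sets passed. Their median was 0.17. The brightest Cbx6 probe set differed by 0.21 and the second by -0.19. Cbx2 differed by 0.29, Cbx7 by 0.17 and Cbx8 by -0.10.

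Cbx1, a heterochromatin protein 1, rose. Its brightest probe set (1433718_a_at) read 9.78, 9.86 and 9.77 without Cre and 10.33, 10.26 and 10.23 with it, with no overlap and little spread. The difference was 0.47 ± 0.09 (SE, log2), 1.39-fold, with a limma adjusted p of 0.0261. Of its other 4 tested probe sets, 3 were higher by 0.29, 0.43 and 0.83 and 1 differed by -0.08, and none of them passed. Those at 0.29 and 0.43 carry the suffix x, which marks probes that may also bind other transcripts. The probe set at 0.83 was dim, with a mean log2 signal of 4.76. Leaving out any 1 of the 6 arrays ended the call, with adjusted p-values of 0.0532 to 0.0895.

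The other heterochromatin protein 1 genes did not pass. All 4 tested probe sets of Cbx5 were higher, by 0.14 to 0.26, with overlapping groups. Cbx3 was represented by 1 dim probe set, which differed by 0.11. The median over the 10 tested probe sets of the family was 0.22, and 9 were higher.

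**Figure D1:**
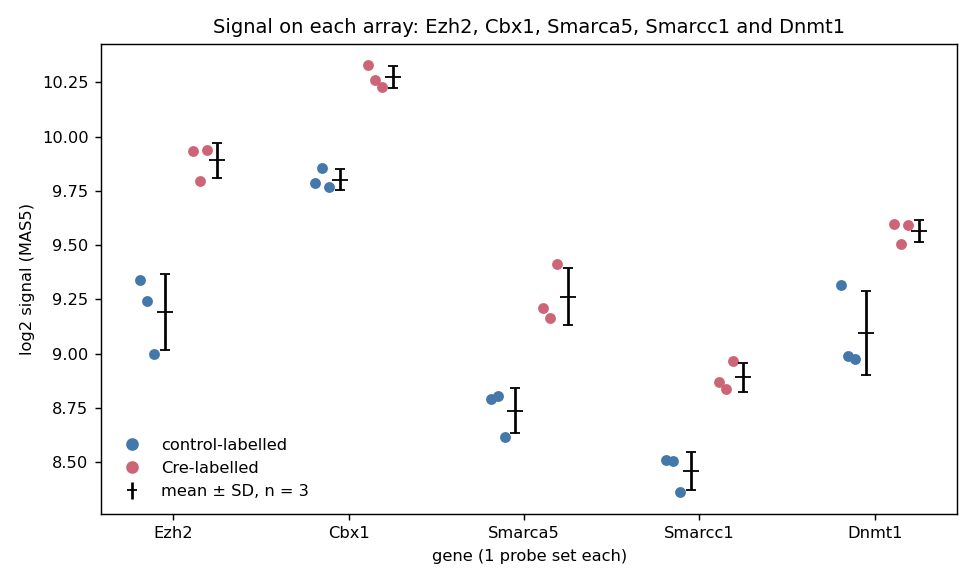
Log2 signal on each array of the 4 probe sets that passed the test and of the brightest Dnmt1 probe set, which did not. Points are single control-labelled and Cre-labelled arrays (3 each), and bars are the mean ± SD. For each gene the Cre-labelled arrays lie above the control-labelled arrays, with mean differences of 0.70 (Ezh2), 0.47 (Cbx1), 0.53 (Smarca5), 0.43 (Smarcc1) and 0.47 (Dnmt1).

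Among the ISWI helicases, Smarca5, the motor subunit of several nucleosome-spacing complexes, rose at 1 of its probe sets. That probe set (1424205_at) read 8.79, 8.80 and 8.62 without Cre and 9.21, 9.16 and 9.41 with it. The groups did not overlap, and the difference was 0.53 ± 0.11 (SE, log2), 1.44-fold, with a limma adjusted p of 0.0316. The brightest Smarca5 probe set was also higher on every Cre-labelled array, by 0.28, and did not pass (adjusted p = 0.172). The third differed by 0.21 with overlapping groups. As with Cbx1, leaving out any single array ended the call, with adjusted p-values of 0.0575 to 0.0924.

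Smarca1, the close relative of Smarca5, read 8.76, 8.65 and 8.64 against 8.92, 8.85 and 9.14. That is a difference of 0.29 without overlap, which did not pass (adjusted p = 0.173). Smarcad1 and Smarcal1, SNF2-type enzymes with roles in repair and replication, differed by -0.11 to 0.19 over 4 probe sets. The 8 tested probe sets of this group had a median of 0.20.

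In the SWI/SNF complex, the scaffold subunit Smarcc1 rose. Its brightest probe set (1455246_at) read 8.51, 8.50 and 8.36 without Cre and 8.87, 8.84 and 8.97 with it, a difference of 0.43 ± 0.10 (SE, log2), 1.35-fold, with a limma adjusted p of 0.0429. The second probe set differed by 0.44 without overlap (adjusted p = 0.0958), and the third, which is dim, by 0.55 with overlap (adjusted p = 0.521). It too lost its call whichever of the 6 arrays was left out, at adjusted p-values of 0.0884 to 0.117. Its paralogue Smarcc2 differed by 0.03.

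The remaining SWI/SNF subunits did not move as a body. Over the 26 tested probe sets of the complex the median difference was 0.04, with 16 higher and 10 lower. Without control-labelled array 3 this median was -0.0086, with 12 of 25 higher. The ATPases Smarca4 (0.07 at the brightest probe set) and Smarca2 (-0.11) had overlapping groups. Arid1b and Arid2, DNA-binding subunits of the BAF and PBAF forms, were higher by 0.31 and 0.28 at their brightest probe sets without overlap, with adjusted p-values of 0.135 and 0.199, while Arid1a was higher by 0.14 at its brightest probe set and lower at its second. Smarcd2 lay lower at all 3 tested probe sets, by -0.11 at the brightest.

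Smarcb1, a core subunit, shows how far probe sets of 1 gene can disagree. Its dim probe set 1435856_x_at read 5.98, 5.37 and 4.82 against 6.57, 6.35 and 6.60, a difference of 1.12 that was the largest upward one among the tested members and did not pass (adjusted p = 0.0575). The brightest Smarcb1 probe set read 8.64, 8.51 and 8.54 against 8.63, 8.60 and 8.60, a difference of 0.05. The suffix x marks a probe set whose probes may also bind other transcripts. The gene is therefore reported as uncertain.

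The DNA methyltransferases had a median of 0.36 over 10 tested probe sets, and none of them passed the test. This was the highest median of the role groups as reported, but not without control-labelled array 1 (0.38, against 0.45 for the TET dioxygenases), without control-labelled array 3 (0.36, against 0.40 for Polycomb repressive complex 2) or with the cardiac covariate (0.33, against 0.35 for the TET dioxygenases). All 10 were higher in Cre-labelled lungs (against 50.1% of all tested probe sets). Of these, 7 had no overlap between groups (70%, against 13.3% of all in this direction). The 10 probe sets come from only 3 genes and are not independent readings. Dnmt1, the maintenance enzyme that copies methylation after replication, read 9.32, 8.99 and 8.98 against 9.60, 9.51 and 9.59 at its brightest probe set. The difference was 0.47 with an adjusted p of 0.0551, just outside the threshold. Its other 2 probe sets differed by 0.39 and 0.82, also without overlap, with adjusted p-values of 0.0821 and 0.0663. Both carry the suffix x (1435122_x_at and 1447877_x_at), so their probes may also bind other transcripts. The brightest probe set passed in 6 of 16 alternatives that kept all 6 arrays, and in 1 of the 6 fits that left out an array, the one without control-labelled array 1. The 6 of 16 include the looser threshold of 0.10 on the reported fit, which its adjusted p of 0.0551 meets in any case.

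Dnmt3a and Dnmt3b, which place new methyl groups, were also higher without passing. Of the 5 tested Dnmt3a probe sets the brightest differed by 0.16 and 1423065_at by 0.69 (7.21, 6.70 and 6.85 against 7.81, 7.22 and 7.78), the latter with an adjusted p of 0.0891. Neither of these had overlapping groups. The 2 Dnmt3b probe sets differed by 0.30 and 0.12.

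Of the TET dioxygenases, Tet1 was higher at all 3 tested probe sets and Tet2 was level. The brightest Tet1 probe set read 7.98, 7.71 and 7.38 against 8.30, 8.06 and 8.37, a difference of 0.55 without overlap and with an adjusted p of 0.0941. Tet2 read 8.64, 8.28 and 8.63 against 8.46, 8.51 and 8.56, and its 2 probe sets differed by -0.0032 and 0.08. The median of the 5 tested probe sets was 0.24, and single arrays moved it from 0.018 (without control-labelled array 2) to 0.45 (without control-labelled array 1). It was 0.084 without Cre-labelled array 1 and 0.079 without Cre-labelled array 3.

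**Figure D2:**
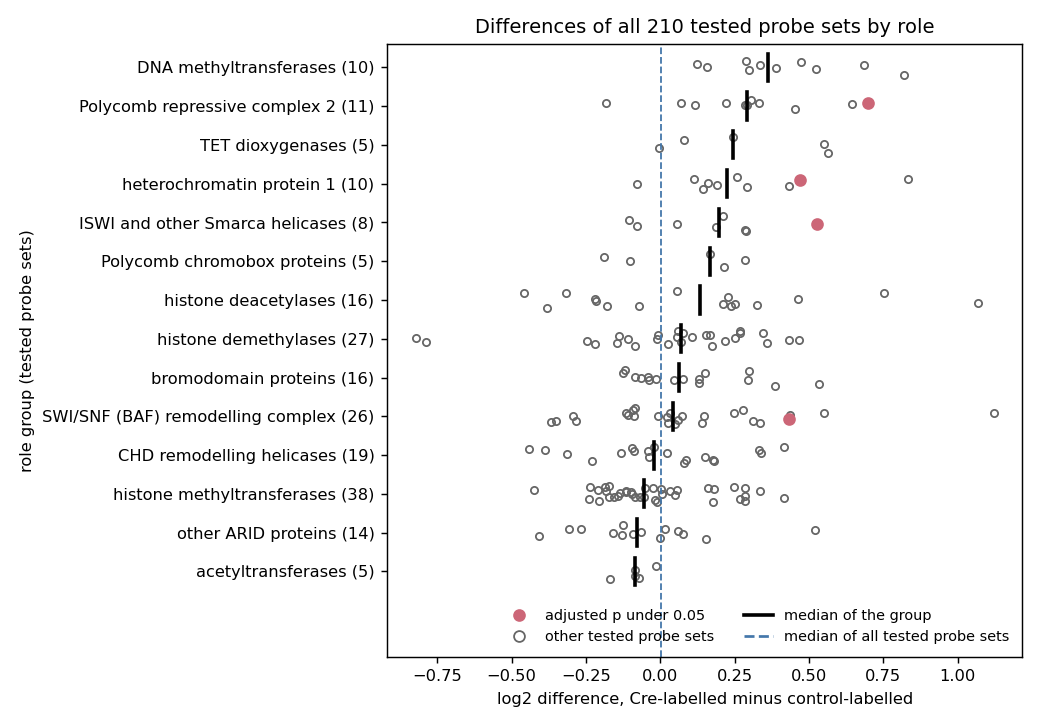
Log2 difference (Cre-labelled minus control-labelled) of each of the 210 tested member probe sets, 1 row per role group with its number of probe sets. Filled points passed the limma test, black bars are group medians and the dashed line is the median of all tested probe sets. The DNA methyltransferases lie wholly above 0 with a median of 0.36, and the histone methyltransferases are spread about -0.05.

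No histone deacetylase passed, over 16 tested probe sets. Their median was 0.13, with 9 higher, and it turned to -0.07 (5 of 11 higher) with 1 probe set per gene and fell to 0.017 without control-labelled array 2. The class I enzymes Hdac1, Hdac2 and Hdac3, catalytic subunits of nuclear corepressor complexes, were higher. Hdac2 read 10.24, 10.27 and 10.22 against 10.48, 10.53 and 10.70 at its brightest probe set, a difference of 0.33 without overlap (adjusted p = 0.107), and a second probe set differed by 0.46 (adjusted p = 0.0711). Hdac3 differed by 0.24 without overlap and Hdac1 by 0.25 with overlap, and neither passed.

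The class IIa enzymes Hdac5, Hdac7 and Hdac9, which shuttle between nucleus and cytoplasm and act in muscle and vessel, lay lower at their brightest probe sets on every Cre-labelled array. Hdac5 read 8.145, 8.348 and 8.407 against 7.998, 7.957 and 7.995 (-0.32, adjusted p = 0.138). Hdac9 read 6.38, 6.44 and 6.47 against 6.12, 5.96 and 6.07 (-0.38, adjusted p = 0.196). Hdac7 differed by -0.18, and the class I enzyme Hdac8, which is dim here, by -0.46 without overlap. The class IIa enzyme Hdac4 differed by -0.22 and 0.23 at 2 probe sets. Hdac6, Hdac10 and Hdac11 had overlapping groups at each tested probe set. Class I genes therefore lie on both sides of 0. The class IIa genes Hdac4, Hdac5, Hdac7 and Hdac9 all lay lower at their brightest probe sets. The second Hdac4 probe set (0.23) was the only tested one of class IIa that was higher. The classes were not compared by a test. The cardiac muscle list lay lower at all 8 genes in the Cre-labelled lungs, with overlapping list means of 7.89 to 10.02 against 6.96 to 8.60 and no gene past the threshold, and its part in the lower deacetylase signals was not tested.

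The histone demethylases were mixed, with 17 of 27 tested probe sets higher and a median of 0.07. Kdm4a, which removes methyl groups from lysines 9 and 36 of histone H3, came nearest to the threshold. It read 7.28, 7.22 and 7.31 against 6.93, 6.53 and 5.89, a difference of -0.82 with an adjusted p of 0.0896, and the Cre-labelled arrays were far more scattered than the controls. Kdm7a lay lower by -0.79 at 1 probe set without overlap (adjusted p = 0.135) and by -0.14 at its brightest. Kdm1a, which removes mono- and dimethyl groups, was higher by 0.25 and Kdm2b by 0.27 at their brightest probe sets, both without overlap and without passing. Kdm3a, at 10.08, 10.23 and 10.42 against 10.04, 10.34 and 10.32, was level.

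Of the histone methyltransferases outside Polycomb, the largest group, none of 38 tested probe sets passed. Their median was -0.05, with 15 higher and 23 lower. That direction rested on single arrays: without Cre-labelled array 2 the median was 0.025 with 22 of 39 higher, and without control-labelled array 1 it was 0.0053 with 20 of 38 higher. Setd1a, catalytic subunit of a complex that methylates lysine 4, had the smallest p of the group: 7.52, 7.57 and 7.45 against 7.67, 7.81 and 7.87, a difference of 0.27 with an adjusted p of 0.216. Kmt2e read 10.24, 10.01 and 10.05 against 9.98, 10.07 and 10.27, a difference of 0.00. The Kmt2c probe sets, 4 in all, lay lower by -0.06 to -0.24, as did the 5 of Kmt5b, by -0.12 to -0.24, and each of these 9 had an adjusted p above that of Setd1a.

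Among the CHD helicases, Chd6 was just outside the threshold. It read 8.14, 8.03 and 8.02 against 8.43, 8.44 and 8.58, a difference of 0.42 without overlap and an adjusted p of 0.0533. The brightest Chd8 probe set differed by -0.02 and that of Chd4, the motor of the NuRD complex, by 0.18, both with overlap. The 19 tested probe sets had a median of -0.02 with no settled direction. It was above 0 in 9 of 21 alternative settings and ran from -0.088 with the cardiac covariate to 0.098 without control-labelled array 3.

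The last 3 groups had no member near the threshold. The bromodomain proteins, readers of acetylated histones, had a median of 0.06 over 16 probe sets. Without Cre-labelled array 1 this median was -0.033, with 7 of 16 higher. Brd8 had the smallest p among them, with 8.62, 8.68 and 8.62 against 8.97, 8.92 and 8.92, a difference of 0.30 (adjusted p = 0.101), and Brd3 differed by 0.13. The ARID proteins outside SWI/SNF had a median of -0.08 over 14 probe sets. Their brightest probe sets for Arid4b and Arid5b differed by 0.15 and -0.13. The acetyltransferases Crebbp and Ep300 lay slightly lower at all 5 probe sets, by -0.01 to -0.17, within the spread of the arrays. Their median of -0.08 became 0.057 without Cre-labelled array 2 and 0.027 without control-labelled array 3, with 3 of 5 higher in each case.

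Probe sets of 1 gene can be set against each other as a check of direction. Of the 28 member genes with at least 3 tested probe sets, 12 had every probe set higher (42.9%, against 24.1% of the 2486 such genes on the array), 4 had every one lower (14.3%, against 19.5%) and 12 were mixed. The 12 were Arid2, Cbx5, Chd1, Dnmt1, Dnmt3a, Hdac2, Setd4, Setd5, Smarca5, Smarcc1, Suz12 and Tet1. The 4 were Crebbp, Kmt2c, Kmt5b and Smarcd2. Shared direction says nothing of size: the Chd1 probe sets differed by only 0.02 to 0.18.

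**Figure D3:**
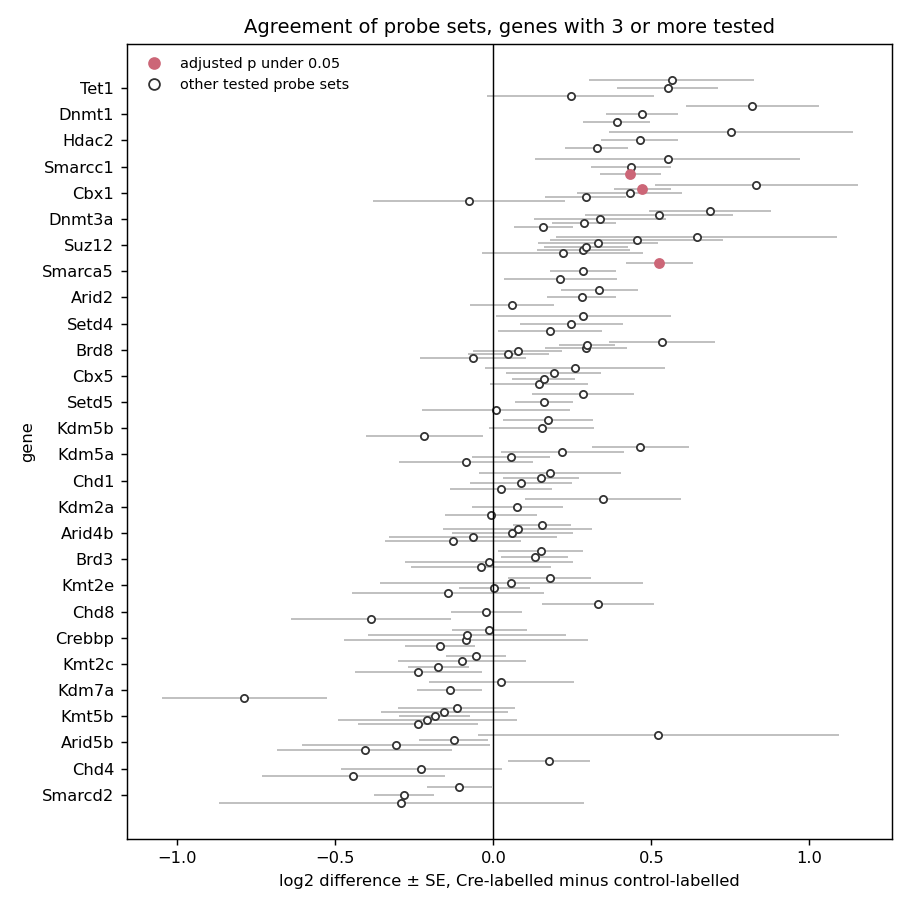
Log2 difference (Cre-labelled minus control-labelled) of every tested probe set of the 28 member genes with at least 3, 1 row per gene, with limma's standard error as a line. Filled points passed the test. Of these genes, 12 lie wholly to the right of 0, 4 wholly to the left and 12 on both sides.

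Other chromatin genes, outside the symbol rule, gave a similar picture. The list held Polycomb complex 1, Polycomb 2 partners, further acetyltransferases, methyltransferases and demethylases, corepressors, remodellers, and histone chaperones with methylation cofactors. Of 131 genes, 121 were matched and 119 tested, each by its brightest probe set. In Cre-labelled lungs 4 rose and 1 fell (4.20%, against 4.96% of all genes), and the median difference was 0.10.

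The genes that passed were Hells, Uhrf1, Nasp, Kat2a and Gadd45g. Hells, a helicase needed for DNA methylation, read 8.343, 8.221 and 8.003 against 9.018, 8.952 and 8.962, a rise of 0.79 ± 0.11 (SE, log2; limma adjusted p = 0.00903). Uhrf1, which brings Dnmt1 to newly copied DNA, read 8.47, 8.41 and 7.93 against 9.14, 8.97 and 9.16, a rise of 0.82 ± 0.15 (limma adjusted p = 0.0210). Nasp, a histone chaperone, rose by 0.70 and the acetyltransferase Kat2a by 0.53, with limma adjusted p-values of 0.0360 and 0.0458. Of the 6 fits that left out 1 array, Hells passed in 6, Uhrf1 in 3, Nasp in 1 and Kat2a in 0. Gadd45g, a stress-induced gene linked to DNA demethylation, read 8.39, 8.10 and 8.74 against 7.30, 7.44 and 7.08 and fell by 1.13 ± 0.17 (limma adjusted p = 0.0113), a call that held in 6 of 6 such fits. None of the 5 had overlapping groups, and neither did 31.8% of all genes by brightest probe set. The 5 were chosen by a test on the same values, so this adds no support.

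By their brightest probe sets, 1.92% of all genes rose and 3.04% fell, and the median difference of the member genes was 0.05. The cell cycle list had a median difference of 0.55. Of 13 matched cell cycle genes, all 13 were higher in Cre-labelled lungs and 10 rose, among them Mki67 (0.52), Top2a (0.55) and Mcm4 (0.67). The mean of the list ran from 9.57 to 9.81 on control-labelled and from 10.18 to 10.29 on Cre-labelled arrays, with no overlap. Markers of mature epithelium moved the other way: all 4 alveolar type II genes were lower and 3 fell, and all 4 alveolar type I genes were lower and 2 fell. Mesenchymal markers were split, 2 higher and 3 lower with none past the threshold, on list means of 11.28 to 11.37 against 11.23 to 11.33. The part of cell division or of cell makeup in the higher signals of Ezh2, Dnmt1 and the other members was not tested.

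Leukocyte markers were lower at all 4 genes, 1 of which fell, with list means of 8.61 to 8.90 against 8.18 to 8.48. The 4 endothelial markers were 1 higher and 3 lower, and the 3 airway markers were lower, with none past the threshold in either list.

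The settings of the analysis decided which members passed. Ezh2 passed in 15 of 16 alternatives that kept all 6 arrays, Cbx1 in 10 of 16, Smarca5 in 9 of 15 and Smarcc1 in 8 of 16. Each of these counts includes the looser threshold on the reported fit. Probe sets that passed the stricter threshold meet it in any case, so that pass is no separate check. The difference of each of these genes stayed above 0 throughout. Ezh2 missed only when the variance was modelled without its dependence on signal (adjusted p = 0.0720), a setting in which no member passed and 171 probe sets did overall. With fetal sex in the model Ezh2 was the only member to pass. Sex was set from the arrays, by whether Xist signal exceeded that of Eif2s3y, as it did on 1 array in each group.

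**Figure D4:**
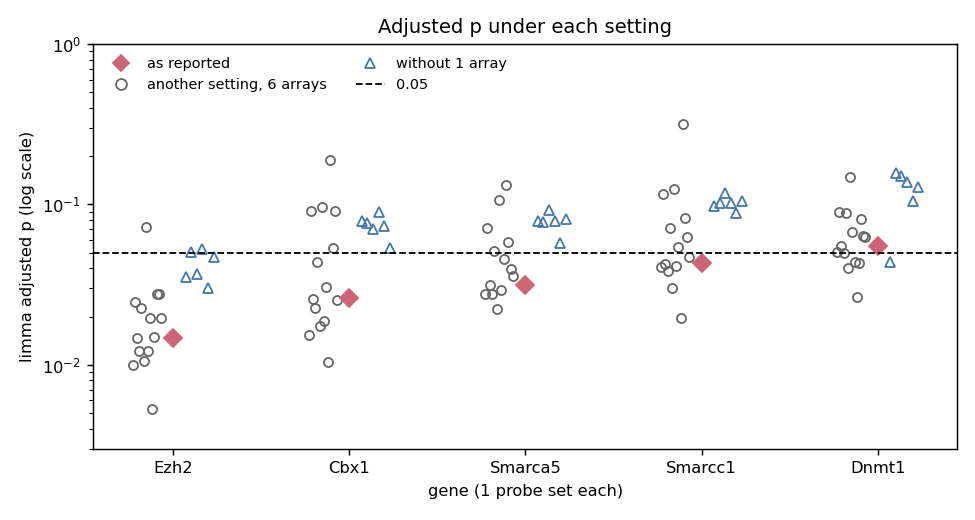
Limma adjusted p in each setting of the 4 probe sets that passed the test and of the brightest Dnmt1 probe set, on a log axis, with the threshold of 0.05 as a line. Separate symbols mark the reported setting, the alternatives with all 6 arrays and the fits that leave out 1 array. Ezh2 stays under the line in 4 of the 6 fits without an array, and Cbx1, Smarca5 and Smarcc1 in none.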

How the data were processed

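Whole-lung RNA of 6 mouse fetuses was measured on Affymetrix arrays, 3 for each group. The deposited values are log2 signals. MAS5 and affy are named in the submitters' processing notes, with no version given. The scaling is not stated beyond that. MAS5 corrects each probe set for background, so low values are noisy. The values were used as deposited. After removal of 64 control probe sets, 45037 remained, of which 34945 had 1 gene symbol in the platform annotation, 932 several and 9160 none. Those whose mean over the 6 arrays reached the 40th percentile entered a two-sided limma fit (lmFit, then eBayes with trend, no covariate; limma 3.58.1, R 4.3.3). P-values were adjusted by Benjamini-Hochberg over the 27022 fitted. The p-values rest on the spread of each probe set between these animals. In the limma fit this spread is pooled with that of probe sets of similar signal (prior degrees of freedom 5.32, residual 4). The number of arrays limits the precision, and an exact permutation test of 3 against 3 cannot go below 0.10. The script was tested on simulated data.

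The text names every member gene past the threshold or under an adjusted p of 0.10, the gene with the smallest p and that with the highest signal in each role group, and the other chromatin genes that passed. Further members were named after their values were seen. The members, role groups and gene lists were chosen with earlier results of these data known. Lists used the brightest probe set of each gene. Promoter sequences are from RefSeq (GRCm38.p6). Differences in the promoter words were not tested. The alternatives tried were other normalizations, offsets, filters, variance models, thresholds, summaries by gene, covariates and each array left out. Plots used matplotlib 3.10.9 and Python 3.11.15.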

Additional observations from a re-analysis of the deposited data

How the results depend on the processing

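The member count of 4 moved as follows, with the members' share of calls set against that of all probe sets in the same setting. It was 7 with quantile normalization (3.32%, against 4.70%), with an offset of 64 (3.30%, against 4.06%) and with the filter at the 60th percentile (4.09%, against 6.66%), and 14 at an adjusted p of 0.10 (6.67%, against 7.85%). It was 6 with the covariate for the 3′ minus 5′ signal (2.86%, against 4.30%) and 6 with that for the cardiac list (2.86%, against 2.34%), the one setting in which the members' share was the higher. It was 2 with a common median (0.952%, against 2.39%) and with no filter (0.760%, against 1.55%), and 1 with a 1.5-fold minimum (0.476%, against 2.81%) or fetal sex as a covariate (0.476%, against 2.17%). With no intensity trend limma called 0 members and 0.633% of all, with 30 members (14.3%, against 18.3%) at an unadjusted p under 0.05. It kept to 3 to 5 with an offset of 1, array weights, 1 probe set per gene and probe sets averaged by gene. The genes called changed too. Probe sets averaged by gene gave Dnmt1, Ezh2 and Kmt2d. The 2 Kmt2d probe sets differed by -0.096 and -1.55, the latter dim and untested in the reported fit. Kdm4a, lower in every setting, passed with the 3′ minus 5′ covariate. Kdm7a (-0.79 to 0.03 as reported) passed with the cardiac covariate. Leaving out each array in turn gave 0 to 3 members: 0 without control-labelled array 2, with 33 (15.6%, against 17.4%) at an unadjusted p under 0.05, and 0 without Cre-labelled array 1, with 35 (16.7%, against 17.6%). The member median stayed above 0, at 0.02 to 0.11 without single arrays. The count over all 963 probe sets became 171 with no intensity trend, 2120 at an adjusted p of 0.10, 571 with the mean of probe sets, 587 with fetal sex, 633 with the cardiac covariate and 308 to 499 without single arrays. The 5 other chromatin genes became 3 with a common median, no filter or fetal sex, 8 with the 60th percentile, 0 with no intensity trend (26 at an unadjusted p under 0.05), 13 at an adjusted p of 0.10, 11 with 1 probe set per gene, 2 with the mean of probe sets and 2 to 3 without single arrays. These counts, and the member counts given without a share, are not read as results about chromatin genes. The number called over all probe sets moved with the setting too. The cause of the moves was not tested.

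The labels do not say whether same-numbered arrays belong together. Their deviations from the group means correlated at -0.01, 0.20 and 0.14. In both groups array 2 had the lowest median log2 signal (4.85 control-labelled, 4.80 Cre-labelled). Array 3 had the highest 3′ minus 5′ signal in both (0.23 and 0.45). An effect shared by same-numbered arrays was allowed for in a fit with the replicate number as a block. Whether such an effect is present was not tested. In that fit 7 member probe sets passed (3.33%, against 4.84%), with Dnmt1, Dnmt3a and Smarcb1 gained and Smarcc1 lost.

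Some near-zero differences turned sign. Kmt2e became -0.010 with quantile normalization, -0.037 with array weights, -0.078 with probe sets averaged by gene and -0.020 with the 3′ minus 5′ covariate. Chd8 became 0.012 with a common median, 0.0012 with array weights and 0.016 with probe sets averaged. Kdm3a became 0.025 with a common median and 0.021 with array weights. Tet2 became 0.031 with a common median, 0.011 with array weights, 0.038 with probe sets averaged and 0.022 with the cardiac covariate. Arid4b became -0.18 with probe sets averaged. Without single arrays Chd8 ran from -0.075 to 0.063, Kdm3a from -0.091 to 0.088, Kmt2e from -0.078 to 0.074 and Tet2 from -0.12 to 0.059.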
